A study of Mus musculus with 35 samples.

Results

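The clustered histone genes of the mouse encode the core histones H2A, H2B, H3 and H4, which form the nucleosome, and the linker histone H1, which binds the DNA between nucleosomes. Members were all genes whose symbol in the deposited gene models starts with Hist1h, Hist2h, Hist3h or Hist4h, whatever their level. This rule found 64 of 23906 named genes, of which 6 were H1, 16 H2A, 18 H2B, 11 H3 and 13 H4 genes. On mm10 (GRCm38) they lay in 4 named clusters. Hist1, on chromosome 13, held 16 genes between 21715713 and 21837530, 5 between 22035122 and 22043658, and 31 between 23531044 and 23934913. Hist2 held 8 genes on chromosome 3 (96219916 to 96270192), Hist3 held 3 on chromosome 11 (58948911 to 58955192), and Hist4 was Hist4h4 alone on chromosome 6 (136803993 to 136804431).

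The study profiled mouse embryonic neural progenitor cultures with and without Mettl14, which encodes a subunit of the complex that writes N6-methyladenosine (m6A) on mRNA. RNA-seq libraries used here came from wild-type (WT), heterozygous (Het) and homozygous knockout (KO) cultures of batch 1, with 3 libraries per genotype, and from 2 WT and 2 KO cultures of batch 3. Peak lists of m6A came from WT cultures, and those of H3K27ac, an acetyl mark of active promoters, and H3K27me3, a methyl mark deposited by Polycomb, from WT lines 532 and 541 and KO lines 530 and 534, which are the line numbers of the batch 3 libraries. The labels describe a floxed Mettl14 allele whose selection cassette was removed with Flpe, Mettl14 +/- mice obtained with EIIa-Cre and intercrossed for conventional knockouts, and a brain knockout made with nestin-Cre, but not which cross gave which culture. Het and KO are named as the labels name them, no drug or other treatment is listed for any group, and each labelled RNA-seq sample of a genotype has its own line number. The deposited tables number the libraries within a group without tying them to lines, so a library is named here by that number, which carries no order.

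Replication-dependent histone genes are transcribed mainly in S phase, when new DNA has to be packed into chromatin. Their mRNAs have, as a rule, no introns and end in a conserved stem-loop bound by the protein Slbp in place of a poly(A) tail. Some members can also give longer, polyadenylated mRNAs, and Hist1h1c, Hist2h2be and Hist3h2a are among the genes described in that way in differentiated or resting cells.

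Libraries held 13784802 to 19482407 fragments in named genes. Members took 0.833 to 1.05% of these fragments in the WT libraries of batch 1, 0.58 to 0.862% in the Het and 0.317 to 0.614% in the KO libraries, but 0.00528 to 0.00555% in the WT and 0.00703 to 0.00819% in the KO libraries of batch 3. The summed level of all members in WT was 170-fold higher in batch 1 than in batch 3, although the labels describe the same poly(A) purification and ribosomal RNA depletion for both. Of 5 RNAs that lack a poly(A) tail (Rmrp, Rpph1, Terc, Rnu11 and Rnu12, chosen after the member values were seen), the summed level in CPM (fragment counts scaled to library size) was 8831 to 11320 in WT, 5579 to 8954 in Het and 15940 to 17770 in KO of batch 1, and 0.249 to 0.473 in the libraries of batch 3. In batch 1 they were thus highest in KO, where 4 of the 5 rose, while histone RNA was lowest there. The part of library preparation in this batch difference was not tested. Neural progenitor markers (Nes, Sox2, Vim and 6 others) summed to 6811 to 7984 CPM in WT and Het libraries of batch 1 and 6807 and 7446 CPM in WT of batch 3, so markers of the labelled cell type were present. Microglia, endothelial, fibroblast and pericyte, and erythroid markers summed to at most 2.54, 5.65, 12.2 and 7.76 CPM in any library. Mettl14 was counted at 23.6 ± 1.17 CPM (SD, n = 3) in WT and 21.6 ± 1.38 CPM in KO of batch 1, and at 35.4 and 37.8 CPM in WT and 22.7 and 30.3 CPM in KO of batch 3. A count over the whole locus does not check the deletion of a single exon.

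Promoter windows from RefSeq (GRCm38.p6, 250 bases before to 50 after the gene start) were found for 58 of the 64 members, among 32851 windows. Histone promoters are compact and carry short elements close to the start: a CCAAT box, a TATA box, the octamer ATTTGCAT bound by Oct factors, and, in H1 genes, the AAACACA box. Exact matches were searched on both strands, and capitals below mark them (a match on the other strand shows its reverse complement). The 4 windows printed are those of Hist1h1a, the H1 gene with the largest fall in KO, Hist1h1c, an H1 gene whose change did not pass the test, Hist1h2ac, whose window runs into the divergent Hist1h2bc, and Hist3h2a, which fell in both batches. They are Hist1h1a at chr13:23763418-23763717 on the plus strand, Hist1h1c at chr13:23738557-23738856 on the plus strand, Hist1h2ac at chr13:23683910-23684209 on the minus strand, and Hist3h2a at chr11:58954435-58954734 on the plus strand.
Hist1h1a: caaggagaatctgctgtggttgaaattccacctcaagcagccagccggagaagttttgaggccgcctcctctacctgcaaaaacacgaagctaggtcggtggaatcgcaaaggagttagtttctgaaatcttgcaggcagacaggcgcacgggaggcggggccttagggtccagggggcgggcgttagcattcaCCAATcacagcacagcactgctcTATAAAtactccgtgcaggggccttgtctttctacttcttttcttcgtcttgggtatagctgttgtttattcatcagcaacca
Hist1h1c: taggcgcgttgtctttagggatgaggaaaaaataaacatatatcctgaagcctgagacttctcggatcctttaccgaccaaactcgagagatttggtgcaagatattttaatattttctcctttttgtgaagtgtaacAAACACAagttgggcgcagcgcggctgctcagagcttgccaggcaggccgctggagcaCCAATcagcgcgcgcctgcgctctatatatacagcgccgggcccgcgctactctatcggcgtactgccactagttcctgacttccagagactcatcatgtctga
Hist1h2ac: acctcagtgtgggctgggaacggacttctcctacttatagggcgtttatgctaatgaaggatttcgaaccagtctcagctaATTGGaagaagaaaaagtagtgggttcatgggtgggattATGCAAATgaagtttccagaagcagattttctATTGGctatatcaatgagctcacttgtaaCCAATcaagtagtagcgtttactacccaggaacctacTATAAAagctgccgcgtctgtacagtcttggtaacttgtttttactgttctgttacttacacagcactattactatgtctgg
Hist3h2a: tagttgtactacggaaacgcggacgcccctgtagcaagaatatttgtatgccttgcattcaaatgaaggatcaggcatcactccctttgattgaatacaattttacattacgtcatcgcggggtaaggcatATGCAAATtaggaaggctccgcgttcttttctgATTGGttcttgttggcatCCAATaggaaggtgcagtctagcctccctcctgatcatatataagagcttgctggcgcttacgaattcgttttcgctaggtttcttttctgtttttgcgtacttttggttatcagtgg

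All 4 windows held a CCAAT match. Over the members, 49 of 58 windows (84.5%) held CCAAT against 37.4% of all windows, including each of the 6 H1, 16 H2A, 15 H2B and 9 H3 windows but 3 of the 12 H4 windows. TATAAA was present in 34 member windows (58.6%, against 13.6% of all) and the octamer in 13 (22.4%, against 1.74%). The octamer matches lay in 7 H2A and 6 H2B windows and in none of the H1, H3 or H4 windows. Windows of divergent H2A and H2B neighbours, such as Hist1h2ae and Hist1h2bg, overlap. A single match can thus count for both genes, and these windows are not independent. The AAACACA box was present in 5 of the 6 H1 windows and in 15.5% of member windows, against 7.18% of all, and Hist1h1a was the H1 window without an exact match. A match describes the letters of the window and does not show binding.

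Almost every member had an H3K27ac peak near its start site in both genotypes. A peak within 1000 bases of the start was listed for 64 and 64 members in WT lines 532 and 541 and for 63 and 63 in KO lines 530 and 534, against 56.7 to 61.3% of named genes. In all 4 lists, 63 members (98.4%) had a peak, against 53.4% of named genes. The exception was Hist1h1t, the testis linker histone gene, whose WT peaks had low folds over input of 2.91 and 2.90 and which had no peak in either KO line. Because the genes are packed closely, the members shared 37 to 42 distinct peaks per line, so they are not independent observations. A peak within 1000 bases also need not cover the start. For Hist1h2aa in line 532 it lay at chr13:23933677-23934026, whereas the start is at 23934462.

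The folds over input given here are the authors' own values for each peak and describe peaks within a list only. For the best peak at each member the median fold was 10.3 and 9.91 in WT and 9.09 and 12.3 in KO. It was 3.02 to 3.38 over all peaks of a list and 6.13 to 7.31 over peaks with a −log10 q of at least 5, which 63 members had. The best start-site peaks of other genes were not computed, so these values do not set members apart from other promoters. At Hist1h1a, whose RNA was lowest relative to WT in KO, the fold was 5.48 and 8.02 in WT and 6.26 and 6.28 in KO. The 8.02, in line 541, came from a peak of 3804 bases that was also the best peak of Hist1h3a and Hist1h4a. At Hist1h1c the fold was 12.1 and 10.8 in WT and 9.05 and 11.8 in KO. One broad peak covered the shared Hist1h2ac and Hist1h2bc promoter (chr13:23682835-23685557 in line 532), with folds of 11.8 and 10.8 in WT and 13.6 and 12.4 in KO. Hist3h2a had folds of 9.43 and 8.71 in WT and 9.09 and 10.3 in KO. The values are given side by side for these 4 promoters, since folds from separate lists do not measure a change.

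**Figure D1:**
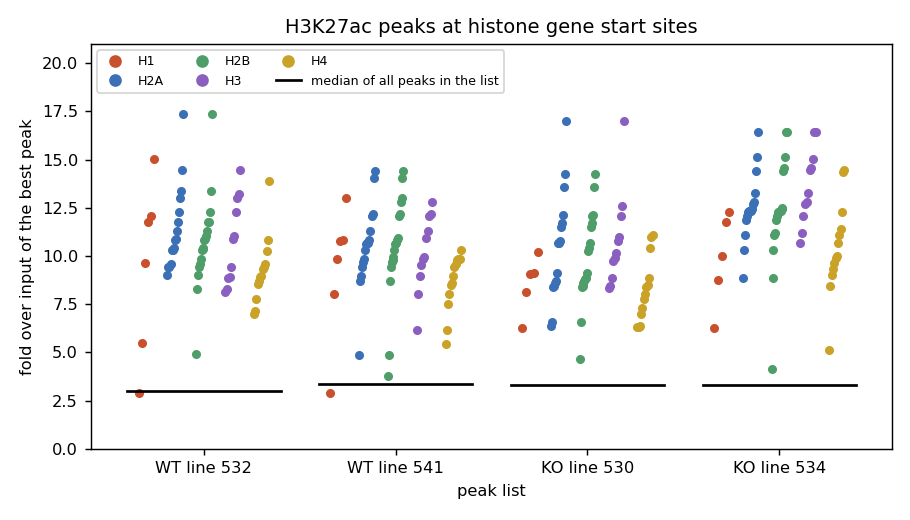
Fold over input of the best H3K27ac peak within 1000 bases of each member's start, by line, as the authors' peak caller gave it. In each of the 4 lines the members lie mostly above the median of all peaks in that list (3.02 to 3.38). That median takes in every listed peak, not only the best peaks at gene starts.

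H3K27me3 peaks were rare at member start sites. Hist3h2ba, an H2B gene of the Hist3 cluster, had a peak in all 4 lists, with folds of 3.68 and 3.50 in WT and 6.01 and 4.52 in KO, and Hist1h1t had one in KO line 534 alone (fold 2.80). These 2 members with a peak in any list were 3.12% of the members, against 24.6% of named genes. Hist3h2ba also carried H3K27ac, with folds of 4.91 and 3.78 in WT and 4.68 and 4.12 in KO.

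In batch 1 the RNA of all 5 histone classes was lower in KO than in WT. Fragments were scaled to CPM and summed over the members of a class without a test, since the members were chosen with earlier results of these data known. 3 batch 1 loci that join genes were kept out of the class sums, so that Hist1h3b, Hist1h3c, Hist1h3e and Hist1h2bm, which were counted there alone, are missing from H3 and H2B in batch 1 but not in batch 3. Linker histone H1 genes summed to 3108, 2547 and 2554 CPM in WT, 2611, 2880 and 2311 CPM in Het and 2015, 1151 and 1213 CPM in KO. H2A genes summed to 1237, 714.9 and 694 CPM in WT, 585, 720.7 and 301 CPM in Het and 587.3, 303.5 and 346 CPM in KO. H2B genes summed to 2657, 2095 and 2141 CPM in WT, 2118, 2178 and 1079 CPM in Het and 1325, 581.2 and 751.4 CPM in KO. In these 3 classes every KO library lay below every WT library, but for H2A and H2B the KO libraries overlapped the Het libraries.

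H3 genes summed to 638.7, 436.5 and 442.9 CPM in WT, 446.3, 416.7 and 306.4 CPM in Het and 286, 132.1 and 155.6 CPM in KO. H4 genes summed to 2306, 2127 and 2077 CPM in WT, 1977, 1909 and 1396 CPM in Het and 1369, 674.3 and 819.8 CPM in KO. For H1, H3 and H4 the KO libraries lay below both the WT and the Het libraries. The 3 joined loci summed to 826.7, 593.3 and 591.1 CPM in WT, 615.2, 610.9 and 395.4 CPM in Het and 410.3, 202.8 and 232.6 CPM in KO. The WT mean was 1.88-fold the KO mean for H1, 2.14-fold for H2A, 2.59-fold for H2B, 2.65-fold for H3 and 2.27-fold for H4. In these bulk cultures, fewer cells in S phase and less histone RNA per cell cannot be told apart.

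**Figure D2:**
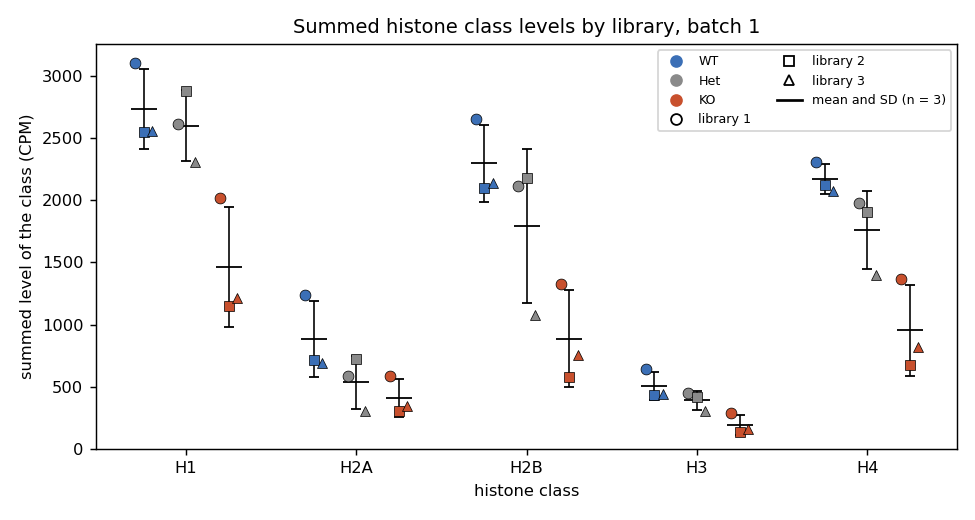
Summed CPM of the members of each histone class by RNA-seq library and genotype. In batch 1 every KO library lies below every WT library in each class.

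3 batch 1 libraries stood apart in their histone RNA. KO library 1 held 1.83 times the mean of the other KO libraries over all members, and WT library 1 held 1.27 times the mean of the other WT libraries (1.76 times for H2A). Het library 3 held 0.678 times the mean of the other Het libraries. Over all members the WT mean was 9263 ± 1309 CPM (SD, n = 3), the Het mean 7619 ± 1595 CPM and the KO mean 4185 ± 1583 CPM, a 2.21-fold difference between WT and KO that was 2.82-fold without KO library 1. 20 DNA replication genes were a list added after the member values were seen. They totalled 3066, 2952 and 3037 CPM in WT, 2953, 2758 and 2656 CPM in Het and 1137, 584.4 and 778.2 CPM in KO. In WT library 1 and Het library 3 this total stood less far from the other libraries than histone RNA did. The highest KO library for these replication genes was the KO library with the most histone RNA. All 20 were lower in KO, against 35.0% of all genes. Neural progenitor markers summed to 3775, 3438 and 3387 CPM in KO against 6811 to 7418 CPM in WT. This sum rested on the abundant Vim, Fabp7 and Nes, since 5 of the 9 markers were lower and 4 higher in KO. Astrocyte markers, of which 5 of 6 were higher, summed to 1637, 1751 and 1687 CPM in KO against 1145 to 1391 CPM in WT. Oligodendrocyte markers summed to 417.5 to 432.1 CPM in KO against 673.6 to 777.7 CPM in WT, with 2 of 6 tested lower and 2 higher. Fibroblast and pericyte markers summed to 10.73 to 12.22 CPM in KO against 2.367 to 2.881 CPM in WT, with 3 of 4 tested higher and Dcn at 0 in both. The part of S phase genes, of these cell type markers and of the RNAs without a poly(A) tail in the histone result was not tested.

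Gene by gene, 55 member loci of batch 1 passed the low-count filter. With edgeR's quasi-likelihood test and an adjusted p below 0.05 over all genes, 39 were lower in KO (70.9% of the 55, against 35.0% of all genes tested) and 1 was higher (against 34.3%). The median log2 fold change of the tested members was -1.29, against 0.00 over all genes, and 54 of 55 were below 0. Without KO library 1, WT library 1 or Het library 3, which stood apart, 43, 27 and 49 were lower. The shares of all genes were then 34.7%, 32.4% and 34.6%. All KO libraries lay below all WT libraries for 49 of the 55 (89.1%, against 37.2% of all genes). The members that did not separate in this way were Hist1h1c, Hist1h2ac, Hist1h2af, Hist2h2ab, Hist4h4 and Hist2h2be, of which the last lay above WT in all KO libraries. 8 members had too few fragments to test: Hist1h1t, Hist2h2aa2 and Hist1h2ba with 42, 41 and 21 fragments over the 9 libraries, and Hist1h2aa, Hist1h2ao, Hist1h4n, Hist1h2br and Hist2h3c1 with 0 to 2. Hist1h1t, Hist1h2ba and Hist1h2aa are testis or germ cell forms. In the Hist1 cluster 9 of 13 tested loci were lower in the first block, 3 of 5 in the second and 20 of 27 in the third. In Hist2 4 of 6 were lower, in Hist3 3 of 3, and Hist4h4 was not called.

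**Figure D3:**
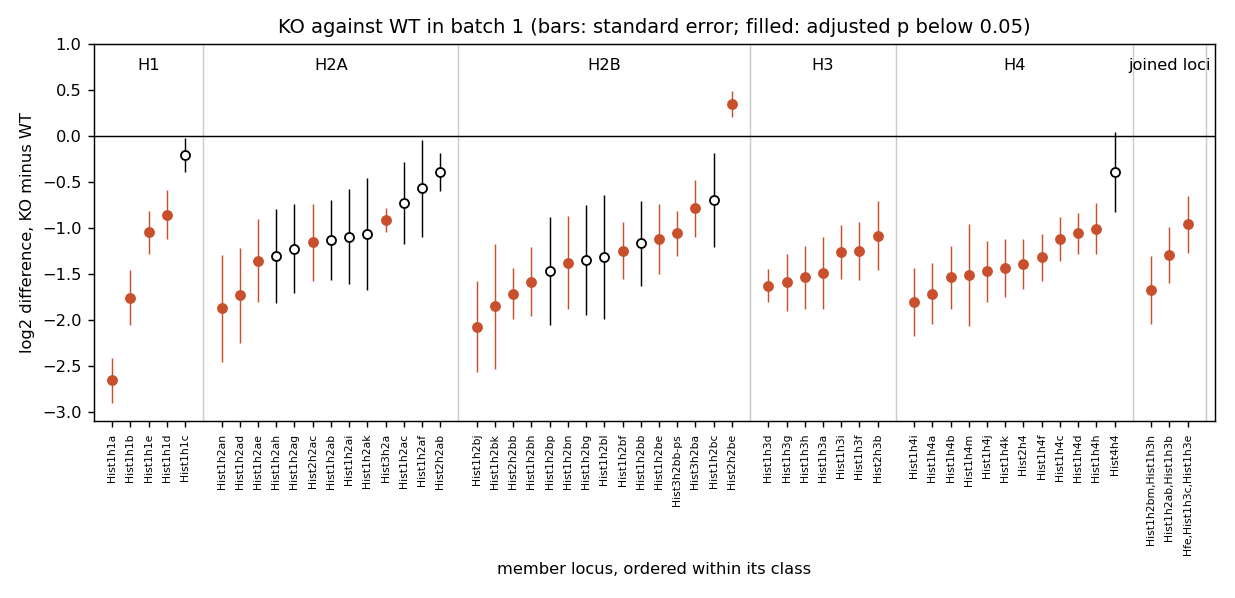
Log2 fold change of KO against WT in batch 1 for each tested member locus, with its standard error, grouped by histone class. 39 loci lie to the lower side with an adjusted p below 0.05 by edgeR's quasi-likelihood test, and 1, Hist2h2be, to the higher side.

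The H1 genes differed widely among themselves, with log2 fold changes from -2.66 to -0.21. The H2B genes spread over a range of nearly the same width (-2.07 to 0.35). Hist1h1a was counted at 271.8, 227.9 and 245.6 CPM in WT, 246.4, 232 and 231.3 CPM in Het and 56.24, 26.38 and 35.15 CPM in KO. It fell by 2.66 on the log2 scale (SE 0.241, edgeR adjusted p = 2.3e-05), the largest fall of any tested member. Hist1h1b, which encodes H1.5, was at 607.3, 523.4 and 552.4 CPM in WT and 256.4, 102.3 and 139 CPM in KO (log2 fold change -1.76, SE 0.302, edgeR adjusted p = 0.00117). For both genes the KO libraries lay far below the WT and Het libraries, which overlapped each other. Hist1h1e, encoding H1.4, went from 560.4, 432.8 and 464.4 CPM in WT to 322.5, 204.6 and 177.2 CPM in KO (log2 fold change -1.05, edgeR adjusted p = 0.00389). Hist1h1d, encoding H1.3, went from 873.6, 672.8 and 643.6 to 589.8, 285.1 and 335.7 CPM (log2 fold change -0.85, edgeR adjusted p = 0.0208). Both separated WT from KO by less than Hist1h1a and Hist1h1b did.

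Hist1h1c, which encodes H1.2, was the H1 gene with the most fragments and did not pass the test. Its level was 795.3, 689.9 and 647.9 CPM in WT, 618.5, 761.7 and 533 CPM in Het and 790, 531.9 and 526.1 CPM in KO, with a log2 fold change of -0.21 (SE 0.185, edgeR adjusted p = 0.346). The 3 genotypes overlapped throughout. Per length, as deposited FPKM (fragments scaled to locus length and library size), Hist1h1c (2285 ± 214.3 FPKM) and Hist1h1d (2142 ± 174.5 FPKM, SD, n = 3) were near each other in WT, whereas in KO Hist1h1c was at 1573 ± 406.3 FPKM and Hist1h1d at 972.3 ± 400.4 FPKM.

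Of the 13 H2A genes tested, 5 were lower in KO (38.5%), a share close to the 35.0% of all genes. Hist3h2a, the H2A gene of the Hist3 cluster, had the smallest spread: 118.5, 98.36 and 93.02 CPM in WT, 105.3, 96.56 and 92.51 CPM in Het and 66.88, 48.48 and 48.91 CPM in KO. It fell by 0.91 on the log2 scale (SE 0.134, edgeR adjusted p = 0.000184), with all KO libraries below all others. Hist1h2an, Hist1h2ad, Hist1h2ae and Hist2h2ac were the other called genes, with log2 fold changes of -1.87, -1.73, -1.36 and -1.16. Hist1h2ah, Hist1h2ag, Hist1h2ab, Hist1h2ai and Hist1h2ak had log2 fold changes from -1.31 to -1.06 that did not pass (edgeR adjusted p 0.0513 to 0.161). In WT library 1 most of these genes were well above the other WT libraries. Hist1h2ak, for example, was at 198.7, 96.85 and 96.48 CPM in WT and 88.62, 47.34 and 51.31 CPM in KO. Hist1h2ac, Hist1h2af and Hist2h2ab, at -0.73, -0.57 and -0.39, overlapped between genotypes (edgeR adjusted p 0.122 to 0.364).

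The H2B genes held the only member that was higher in KO. Hist2h2bb fell most clearly among the abundant ones, from 600.7, 488.3 and 463.1 CPM in WT and 536.4, 511 and 510.9 CPM in Het to 233, 100.2 and 139.7 CPM in KO (log2 fold change -1.71, SE 0.28, edgeR adjusted p = 0.000848). Hist1h2bj had the largest H2B difference, with 196.9, 161.4 and 168.3 CPM in WT and 64.87, 25.07 and 34.72 CPM in KO (log2 fold change -2.07, SE 0.498, edgeR adjusted p = 0.00794). The KO libraries of both genes lay below all WT and, except that Het library 3 of Hist1h2bj was at 53.61 CPM, all Het libraries. Hist1h2bk went from 190.5, 137.6 and 161.1 to 72.19, 25.81 and 36.84 CPM (log2 fold change -1.85, edgeR adjusted p = 0.0452). Hist1h2bn went from 388, 287.9 and 301.2 to 192.5, 77.04 and 105.9 CPM (log2 fold change -1.38, edgeR adjusted p = 0.0445). Hist1h2be went from 233.3, 190.2 and 194.5 to 145.9, 62.25 and 74.81 CPM (log2 fold change -1.12, edgeR adjusted p = 0.0323). In these 3 genes the KO libraries were below the WT libraries, and KO library 1 was above 2 times the mean of the other KO libraries. Hist1h2bh, Hist1h2bf, the pseudogene Hist3h2bb-ps and Hist3h2ba were also called, at -1.59, -1.25, -1.06 and -0.79.

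The remaining 5 H2B genes were not called. Hist1h2bb was at 354.4, 292.5 and 302.9 CPM in WT and 215.1, 86.92 and 120.3 CPM in KO (log2 fold change -1.17, edgeR adjusted p = 0.0596), and Hist1h2bg at 168.5, 131 and 136.2 CPM in WT and 87.89, 35.75 and 46.72 CPM in KO (log2 fold change -1.35, edgeR adjusted p = 0.0834). Hist1h2bl and Hist1h2bp, at -1.32 and -1.47, had edgeR adjusted p-values of 0.124 and 0.053. Hist1h2bc was at 206.2, 157.3 and 145 CPM in WT, 109.4, 150.7 and 33.33 CPM in Het and 141, 79.95 and 92.67 CPM in KO (log2 fold change -0.70, SE 0.514, edgeR adjusted p = 0.266). In all 5 genes each KO library lay below each WT library, while the Het libraries spread over both.

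Hist2h2be, whose RefSeq mRNA is 2618 bases long, went the other way at a low level. It was at 9.22, 9.468 and 9.795 CPM in WT, 10.55, 10.58 and 12.89 CPM in Het and 14.22, 10.51 and 11.5 CPM in KO. Its log2 fold change was 0.35 (SE 0.14, edgeR adjusted p = 0.0437), with all KO libraries above all WT libraries. The call was lost when Het library 2, KO library 1, KO library 3 or any 1 WT library was left out.

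All 7 H3 genes tested were lower in KO, with log2 fold changes from -1.63 to -1.09. Hist1h3d had the smallest adjusted p, with 74.07, 57.99 and 56.36 CPM in WT and 26.28, 15.88 and 18.7 CPM in KO (log2 fold change -1.63, SE 0.18, edgeR adjusted p = 2.6e-05). Hist1h3g, Hist1h3h, Hist1h3a, Hist1h3i, Hist1h3f and Hist2h3b followed at -1.59, -1.53, -1.49, -1.26, -1.25 and -1.09. The range of the fall within H3 was thus narrower than within H1 (-2.66 to -0.21).

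Of 12 H4 genes tested, 11 were lower in KO. Hist1h4d, the member with the highest level per length in WT among loci of a single gene (5064 ± 688.4 FPKM, SD, n = 3), went from 581.8, 554.4 and 557.9 CPM in WT to 515.6, 481.2 and 392 CPM in Het and 381.8, 203.6 and 229 CPM in KO (log2 fold change -1.06, SE 0.223, edgeR adjusted p = 0.00294). Its Het libraries lay between the WT and KO libraries. Hist1h4h went from 263, 275.8 and 250.4 to 177.5, 101.5 and 113.5 CPM (log2 fold change -1.01, edgeR adjusted p = 0.0123). Hist1h4f went from 263.7, 235.8 and 242.8 to 145.3, 68.18 and 83.07 CPM (log2 fold change -1.32, edgeR adjusted p = 0.00228). Hist1h4c went from 220.5, 208.5 and 217.1 to 134.4, 78.46 and 83.71 CPM (log2 fold change -1.12, edgeR adjusted p = 0.00354). In each of these 3 genes the WT libraries were close together and KO library 1 lay between them and the other KO libraries.

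Hist1h4a fell from 204.3, 185.4 and 187.4 CPM to 85.36, 38.95 and 51.1 CPM (log2 fold change -1.71, edgeR adjusted p = 0.00239), and Hist1h4k from 178.7, 158.1 and 165.7 CPM to 90.94, 42.26 and 52.51 CPM (log2 fold change -1.43, edgeR adjusted p = 0.00424). Hist1h4i, at 39.58, 31.89 and 33.84 CPM in WT and 15.64, 6.396 and 7.834 CPM in KO, had the largest H4 fall (log2 fold change -1.80, SE 0.37, edgeR adjusted p = 0.00255). Hist1h4b, Hist1h4m, Hist1h4j and Hist2h4 were also lower, at -1.54, -1.51, -1.47 and -1.39. Hist4h4, the single gene of the Hist4 locus, was the exception at 153.5, 146.8 and 77.83 CPM in WT, 143.4, 141.8 and 179.3 CPM in Het and 149.8, 47.34 and 90.41 CPM in KO. Its log2 fold change of -0.39 did not pass (edgeR adjusted p = 0.449), and its genotypes overlapped.

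3 batch 1 loci joined the reads of several genes and cannot be assigned to 1 of them. The locus Hist1h2bm,Hist1h3h spans 6540 bases (chr13:21716027-21722566) and was at 272.8, 223.8 and 227.2 CPM in WT and 117.4, 50.2 and 58.58 CPM in KO (log2 fold change -1.67, edgeR adjusted p = 0.00502). Hist1h2ab,Hist1h3b spans 7650 bases (chr13:23745191-23752840) and was at 138.7, 126.8 and 116.8 CPM in WT and 79.72, 32.04 and 43.55 CPM in KO (log2 fold change -1.29, edgeR adjusted p = 0.00601). Hfe,Hist1h3c,Hist1h3e spans 190718 bases (chr13:23561896-23752613), holds 18 member genes and also Hfe, the hemochromatosis gene, and was at 415.2, 242.7 and 247.1 CPM in WT and 213.2, 120.6 and 130.5 CPM in KO (log2 fold change -0.96, edgeR adjusted p = 0.0252). All 3 were lower in KO with no overlap, in the same direction as the single genes around them. Hist1h2ao, Hist1h2br, Hist2h2aa2 and Hist2h3c1 each had 2 loci of near-identical sequence, so their low counts (1, 0, 41 and 0 fragments in batch 1) are uncertain, as is the split among other members of near-identical coding sequence.

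The Het libraries gave no called member. By edgeR 0 of 55 were called against WT, 0 had an unadjusted p below 0.05, and the smallest adjusted p was 0.6, while 0.0146% of all genes were called and 8.59% had an unadjusted p below 0.05. DESeq2 also called 0, with 2 members at an unadjusted p below 0.05. Log2 fold changes ran from -1.03 (Hist1h2af) to 0.40 (Hist1h4i), with 50 of 55 below 0. The medians were -0.80 for H2A, -0.40 for H2B, -0.39 for H3, -0.39 for H4 and -0.07 for H1. Relative to the mean of the other Het libraries, the median over genes in Het library 3 was 0.359 for H2A and 0.37 for H2B, but 0.695 for H3, 0.618 for H4 and 0.843 for H1. Hist1h2bk, an extreme case, was at 152.4, 136.5 and 26.29 CPM in Het, whereas Hist1h1a was at 246.4, 232 and 231.3 CPM in the same libraries. Het library 3 also had the lowest level of RNAs without a poly(A) tail in batch 1 (5579 CPM), and the part of this in its histone values was not tested.

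**Figure D4:**
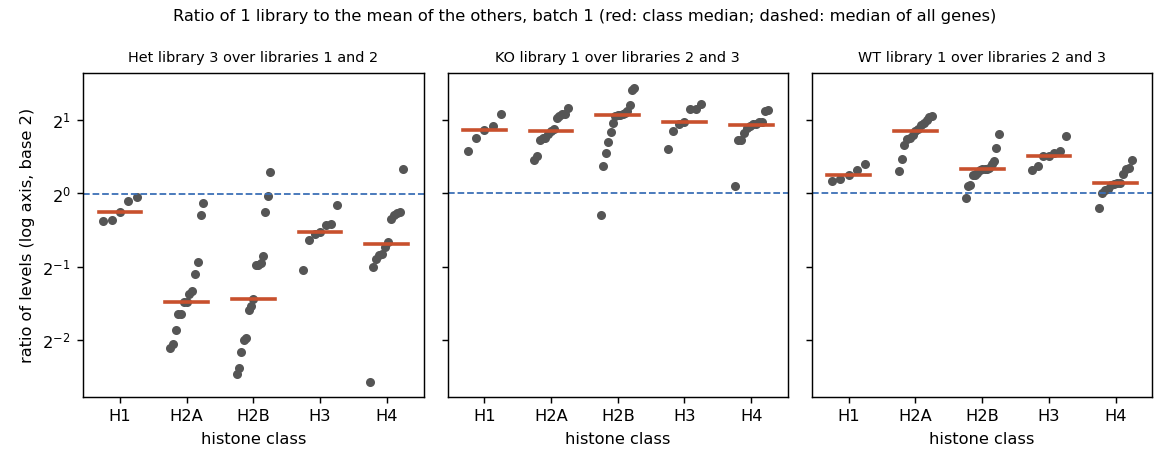
Ratio of each member's CPM in Het library 3, KO library 1 and WT library 1 to the mean of the other libraries of its group, by histone class, on a log axis. In Het library 3 the H2A and H2B members sit lowest (medians 0.359 and 0.37), and in KO library 1 all classes sit near 2 (medians 1.80 to 2.11).

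Against Het, 26 of 55 members were lower in KO by edgeR (47.3%, against 34.2% of all genes) and 0 were higher (against 33.8%), with a median log2 fold change of -0.84. These comprised 4 of 5 H1, 1 of 13 H2A, 5 of 15 H2B, 5 of 7 H3, 9 of 12 H4 genes and 2 of the 3 joined loci. Hist1h1a again had the largest difference, at -2.59 (edgeR adjusted p = 2.8e-05). This comparison uses the same KO libraries as that with WT. Without Het library 3, 40 members were lower, against 32.8% of all genes. Without Het library 1 or Het library 2 the number was 13 and 16 of 55, against 32.4% and 31.4% of all genes. The excess over all genes was thus lost in these 2 omissions. Without KO library 2 or KO library 3 the number was 15 and 15 of 55. Both were smaller shares than the 34.2% of all genes called with every library kept, so the excess was not seen there either.

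In batch 3 few members were detected and their direction was mixed. 7 of the 64 passed the low-count filter, and by edgeR 1 was lower (against 14.4% of all genes) and 1 higher (against 17.3%). All KO libraries lay below all WT libraries in 1 of the 7 and above them in 3, against 34.6% of all genes for each. The other 57 members had at most 26 fragments over the 4 libraries (Hist1h2be 26, Hist1h1b 16, Hist2h2ac 13). Their summed level was 3.30 and 3.04 CPM in WT and 3.25 and 2.99 CPM in KO. In batch 1 the 56 loci other than those 7 fell 2.43-fold, from a mean of 8208 CPM in WT to 3373 CPM in KO. A fall of their sum was thus not seen in batch 3. Over the libraries of a genotype, the 57 had 24 fragments in WT and 17 in KO for H1, and 23 and 21 for H2A. They had 27 and 40 for H2B, 14 and 16 for H3, and 10 and 7 for H4. At 45 to 53 fragments per library a difference of the size seen in batch 1 could not be measured for single genes.

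Hist1h2bc rose in batch 3. It had 112 and 84 fragments in WT and 478 and 504 in KO, which is 6.97 and 5.68 CPM against 31.7 and 29.0 CPM. Its log2 fold change was 2.26 (SE 0.199, edgeR adjusted p = 0.000418), with both KO libraries far above both WT libraries. Hist3h2a fell, from 14.2 and 17.5 CPM in WT to 9.16 and 6.84 CPM in KO (log2 fold change -0.99, SE 0.237, edgeR adjusted p = 0.0159), close to its change of -0.91 in batch 1. Without WT library 2 it no longer passed (log2 fold change -0.83).

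The other 5 tested members did not pass. Hist1h1c was at 16.37 and 11.96 CPM in WT and 18.3 and 16.5 CPM in KO (edgeR adjusted p = 0.325). Hist2h2be was at 10.8 and 9.06 CPM in WT and 9.63 and 9.19 CPM in KO (edgeR adjusted p = 0.823). Hist3h2ba was at 1.12 and 2.57 CPM in WT and 4.45 and 2.59 CPM in KO (edgeR adjusted p = 0.173). Of these, Hist1h1c and Hist3h2ba had both KO libraries above both WT libraries, and Hist2h2be did not separate. Hist2h3c1 (1.99 and 1.35 CPM against 2.32 and 1.38 CPM) and Hist1h4i (1.18 and 2.23 CPM against 1.66 and 1.90 CPM) had log2 fold changes of 0.13 and 0.07. The class sums followed these few genes: H2B summed to 19.85 and 18.05 CPM in WT and 47.01 and 41.99 CPM in KO, and H2A to 15.06 and 18.11 CPM in WT and 9.827 and 7.467 CPM in KO. The 20 DNA replication genes summed to 3495 and 3806 CPM in WT and 2358 and 2840 CPM in KO of batch 3. There 13 were lower and 1 higher, against 14.4% and 17.3% of all genes.

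**Figure D5:**
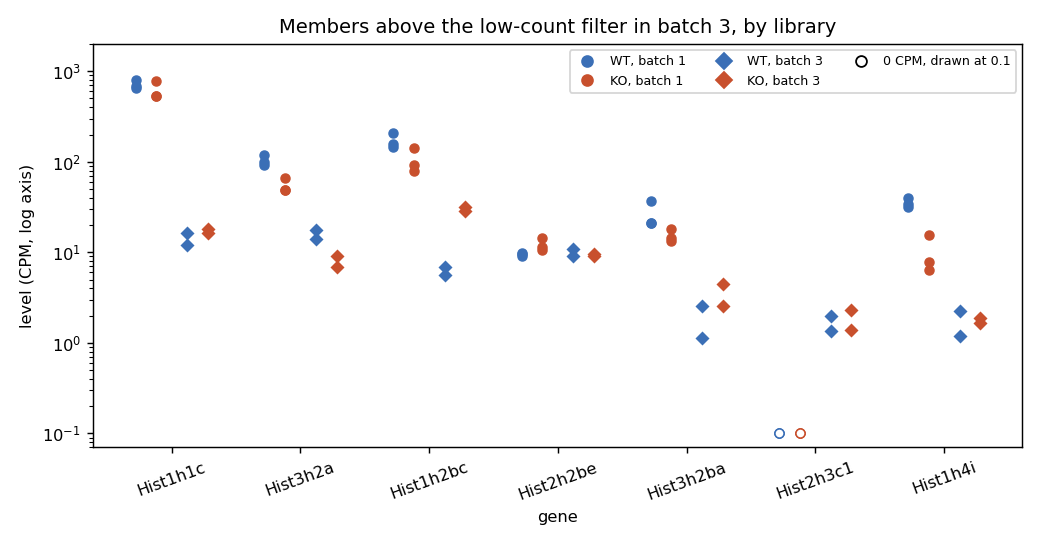
CPM by library of the 7 members that passed the low-count filter in batch 3, on a log axis. In batch 3 Hist1h2bc lies at 5.68 and 6.97 CPM in WT and 29.0 and 31.7 CPM in KO, Hist3h2a lies lower in KO, and the other 5 were not called.

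5 of the 7 members detected in batch 3 had gene models that go beyond a short intronless histone transcript. In the batch 3 assembly, transcripts of Hist1h1c, Hist3h2a and Hist2h3c1 ran 833, 1099 and 1146 bases past their RefSeq ends. Such an extension can be assembled only from reads, so its lack in the members with at most 26 fragments carries no information. Hist2h2be already has a long RefSeq mRNA, and Hist1h2bc has a spliced RefSeq form of 728 bases over a span of 8282 bases. Hist3h2ba and Hist1h4i, with 462 and 403 bases, have neither. Of the other 57 members, Hist1h2be, Hist1h2br and Hist1h2bp also have long or spliced RefSeq forms. Hist2h2be stood at nearly the same level in WT of both batches (9.22 to 9.80 CPM in batch 1 and 9.06 and 10.8 CPM in batch 3), whereas Hist1h1a, with 227.9 to 271.8 CPM in WT of batch 1, had 1 fragment over the 4 libraries of batch 3. In batch 1 the gene models of Hist1h2bc and Hist1h2be lie inside the span of the joined locus Hfe,Hist1h3c,Hist1h3e, Hist2h3c1 overlaps Hist2h2aa2, and whether strand was used in counting is not given in the sources used here.

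A fit with an interaction of KO and batch asked whether the effect of KO differed between batches, and could answer for few members. Of the 53 members in this fit 7 had passed the filter in batch 3. The others entered through their batch 1 fragments, and with at most 26 fragments in batch 3 several had no usable estimate (SE 8124 for Hist1h2an and 7312 for Hist1h4a), so counts over the 53 say little about these. By edgeR 2 of 53 were called higher in batch 3 than in batch 1 (against 10.7% of all genes) and 0 lower (against 8.2%). The number higher was 5 with DESeq2, 21 and 31 with limma on log2(FPKM + 0.1) and log2(FPKM + 1), and 0 to 3 when 1 library was left out. For Hist1h2bc the KO effect was 2.91 log2 units higher in batch 3 (SE 0.779, edgeR adjusted p = 0.031), the difference between a rise in batch 3 and a change in batch 1 that did not pass. This call was lost when any 1 library of batch 3, or KO library 2, KO library 3 or WT library 1 of batch 1, was left out, and with no filter on low counts. Hist1h3d was also called at 6.30 (SE 1.79, edgeR adjusted p = 0.0314), but it had 0 and 0 fragments in WT and 1 and 5 in KO of batch 3, so this value depends on the prior count of the fit and no fold is given. With batch as a covariate and all 13 libraries in 1 fit, 43 of 53 members were lower by edgeR (81.1%, against 30.8% of all genes) and 0 were higher (against 32.8%), with a median of -1.21 against 0.03 over all genes. By class these were 4 of 5 H1, 9 of 13 H2A, 12 of 15 H2B, 7 of 8 H3 and 11 of 12 H4 genes. Batch 1 supplied nearly all fragments of this fit. Hist1h1a was at -2.62 (edgeR adjusted p = 2.9e-07) and Hist3h2a at -0.92 (edgeR adjusted p = 1.7e-05).

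Peaks of m6A were rare on members. The 4 deposited lists set each of 2 WT immunoprecipitates against each of 2 inputs, so they are not independent. A peak overlapped an exon of 4, 6, 3 and 2 members (3.12 to 9.38%), against 30.8 to 32.9% of named genes. Hist2h2be and Hist3h2a had a peak in all 4 lists (3.12% of members, against 24.9% of named genes), and 8 members had one in any list (12.5%, against 39.6%). The other 6 were Hist1h1c, Hist1h4a, Hist1h4f, Hist1h4k, Hist2h3b and Hist2h3c1. Peak calls need reads in the input, and the depth of these libraries is unknown, so few peaks do not show that a transcript is free of m6A.

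Hist2h2be had 2 peaks in each of the 4 lists. The higher of the authors' folds over input was 4.07, 4.42, 4.76 and 5.64, with the first at chr3:96221177-96221412. The value of list 2 came from a different peak, at chr3:96222950-96223173. For Hist3h2a the fold was 2.59, 3.34, 3.19 and 2.67, with the first at chr11:58955040-58955139. When exons of all assembled transcripts were counted, an alternative added after seeing the data, Hist1h1c joined them in all 4 lists (3 members, 4.69%, against 25.5% of named genes). Its peak, at chr13:23739836-23740085 with folds of 4.90, 4.73, 5.85 and 6.14, lay past the RefSeq end of the gene at 23739531, in the assembled extension. All 3 genes are among the 7 detected in batch 3.

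Genes that act on histones or their mRNAs were read in 3 lists, chosen by their textbook roles with earlier results of these data known. Of 28 genes for the transcription and processing of histone mRNA, over batches 13 were lower and 7 higher in KO by edgeR, against 30.8% and 32.8% of all genes. Slbp, which binds the stem-loop at the end of histone mRNAs, was at 98.2 ± 1.739 CPM (SD, n = 3) in WT, and at 98.8, 95.65 and 85.58 CPM in Het and 33.65, 26.1 and 30.35 CPM in KO of batch 1. In batch 3 it was at 104.3 and 114.6 CPM in WT and 61.81 and 80.93 CPM in KO. All KO libraries lay below all WT libraries of their batch, and the log2 fold change was -1.24 over batches (edgeR adjusted p = 3.13e-05). Npat, the coactivator that switches on histone genes in S phase, had a log2 fold change of 0.11 (edgeR adjusted p = 0.143). Lsm10, a subunit of the U7 particle that cuts histone pre-mRNA, rose by 2.12 (edgeR adjusted p = 5.75e-09), from 13.42, 15.45 and 13.83 CPM in WT to 58.61, 56.25 and 58.37 CPM in KO of batch 1. It rose as well in batch 3, from 11.51 and 9.935 to 42.49 and 57.96 CPM. Mif4gd, a translation partner of Slbp, rose by 0.70, and the cap-binding subunit Ncbp1 and its partner Srrt fell by 0.57 and 0.81 (edgeR adjusted p = 9.16e-06, 1.91e-06 and 3.61e-06).

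Of 19 histone chaperones and assembly factors tested over batches, 14 were lower and 2 higher in KO by edgeR, against 30.8% and 32.8% of all genes. Nasp, the chaperone that stores H3 and H4, fell by 1.51 (edgeR adjusted p = 1e-06) and Rbbp4, a subunit of chromatin assembly factor 1, by 0.56 (edgeR adjusted p = 4.58e-06). Asf1a and Daxx, which carry H3 and H4 for deposition, rose by 0.67 and 0.40 (edgeR adjusted p = 9.85e-07 and 0.000204). Of 11 replacement histone genes, which lie outside the clusters and mostly give polyadenylated mRNAs, 6 were lower and 1 higher, against the same shares of all genes. The macroH2A genes H2afy and H2afy2 fell by 0.70 and 0.63 (edgeR adjusted p = 4.05e-06 and 7.59e-06), and H1f0, the linker histone of resting cells, rose by 0.29 (edgeR adjusted p = 0.0048). The median log2 fold changes of these lists over batches were -0.21, -0.56 and -0.43 in the order given, against -1.21 for the clustered histone genes and 0.03 for all genes. The value of the clustered histone genes rests mostly on batch 1, where most of their fragments were. In batch 1 alone the medians were -0.31, -0.77 and -0.46, against -1.29 and 0.00.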

How the data were processed

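Per the submitters' processing notes, TopHat2 2.1.0, Cufflinks and Cuffdiff (RNA-seq), Bowtie2 2.3.1 and MACS2 (peaks) were among the tools used on mm10; their roles and settings are not given in the sources used here. The authors deposited, per locus of an assembly merged in each batch and per library, an estimated count of fragments and an FPKM value, scaled to locus length and library size. Each deposited peak has a fold over input (a ratio) and a score, beside its p and q as −log10 values, per the file headers and format.

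Estimated counts were rounded (5.31% and 2.31% of values were not whole in batches 1 and 3) and summed per gene name. Loci without a gene name (0.352 to 2.16% of fragments) were left out. The table for batch 2 is identical to that of batch 1, so its 6 libraries were not analysed here. edgeR 4.0.16 (R 4.3.3) was run over all genes with TMM scaling, filterByExpr at its defaults and a two-sided, robust quasi-likelihood test, with Benjamini-Hochberg adjustment and calls at an adjusted p below 0.05. It was tested on simulated counts. CPM use the TMM factors. Alternatives were DESeq2 1.42.0, limma 3.58.1 on log2(FPKM + 0.1) or log2(FPKM + 1), upper quartile scaling, no filter, and leaving out libraries. The p-values measure the spread between these libraries.

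The members and lists were chosen with earlier results of these data known. Named were all members that passed the filter over batches or join loci, with values per library for the 20 highest and for others that a result turns on, the 3 highest members below the filter, and from each related list the 2 genes with the lowest adjusted p in each direction, plus Slbp, Npat and Mettl14. A ChIP peak counted within 1000 bases of a start and an m6A peak over an exon by at least 1 base. Standard errors of log2 fold changes come from the edgeR fit and take in the spread between libraries. No intervals from counts alone are given, and reads carry no molecular identifiers.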

Additional observations from a re-analysis of the deposited data

Results flagged for a closer look

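A test of the difference between batches itself called the KO effect on 2 members, of which Hist1h3d had too few batch 3 fragments to be read. For Hist1h2bc the KO effect was 2.91 log2 units higher in batch 3 than in batch 1 (edgeR adjusted p = 0.031), with KO libraries above WT in 2 of 2 in batch 3 and below WT in 3 of 3 in batch 1. For Hist1h3d the fitted difference was 6.30 log2 units (edgeR adjusted p = 0.0314) on 0 and 0 fragments in WT and 1 and 5 in KO of batch 3. This value depends on the prior count of the fit and is not a measured difference. The call for Hist1h2bc was lost without KO library 2 or 3 or WT library 1 of batch 1 and without any 1 library of batch 3 (2.75 to 3.09 log2 units), and that for Hist1h3d without KO library 3 of batch 1 and without KO library 2 or either WT library of batch 3 (4.92 to 6.31 log2 units).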

How the results depend on the processing

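No paired analysis was possible because the deposited tables number libraries within a group without tying them to lines, and the labels number no replicates across genotypes. Of the 40 members called in batch 1, 31 kept their call under every tool, scaling and filter tried and 27 under every omission of 1 library, and all 40 kept their direction. Members lower in KO numbered 27 to 49 in batch 1 and 34 to 44 over batches when 1 library was left out, and 13 to 40 against Het. Higher ones numbered 0 to 1, 0 to 0 and 0 to 0. The 13 of 55 against Het, without Het library 1, were a smaller share than the 32.4% of all genes. Het against WT gave 0 to 0 in both directions. In batch 3 they numbered 0 to 1 lower and 1 to 2 higher, and the interaction gave 0 to 3 higher and 0 to 0 lower. Where an arm was left with 1 library, that library is assumed to vary like the others. Log2 ratios of KO to WT class sums ran from -1.21 to -0.76 (H1), -1.44 to -0.77 (H2A), -1.79 to -1.15 (H2B), -1.81 to -1.20 (H3), -1.54 to -0.99 (H4) and -1.50 to -0.96 (all). The member higher in batch 1, Hist2h2be, was not called without a filter (0) or by limma on log2(FPKM + 0.1) or log2(FPKM + 1) (0 and 0). In batch 3 limma on log2(FPKM + 0.1) and log2(FPKM + 1) gave 0 and 0 lower and 2 and 2 higher. The interaction gave 5 higher with DESeq2, 21 and 31 with limma at the pseudocounts 0.1 and 1, and 1 without a filter. With −log10 q of at least 5, 1 member had H3K27me3 in any list and 0 had m6A in all lists, and with at least 100 bases of exon 1 had m6A in all lists. Uncalled batch 3 values changed sign: leaving out 1 library gave -0.33 to 0.59 for Hist1h4i, -0.19 to 0.052 for Hist2h2be and -0.27 to 0.48 for Hist2h3c1, and limma gave -0.066 and -0.021 for Hist2h3c1 at the pseudocounts 0.1 and 1. The cause of these changes was not tested. Batch 3 libraries were about as deep as those of batch 1, but 57 members had at most 26 fragments there, which limits their values.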
